A study of Mus musculus with 6 samples.

Results

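*Asb18* and 7 other ASB genes expressed in striated muscle, *Asb2*, *Asb8*, *Asb10*, *Asb11*, *Asb12*, *Asb14*, and *Asb15*, were described in mRNA-Seq of the left ventricle (LV). The 8 genes were chosen by gene name among the 12629 genes that the authors' comparison table names, out of 56923 genes with counts listed, and with the comparison of the genotypes in these libraries already known, so their differences between the genotypes are given as a description, without p-values and with counts set only beside those of all genes. The libraries came from the PBS-perfused LVs of 12-week-old male mice, 3 WT (*Lztr1* +/+) and 3 *Lztr1* R409C/+, with 1 library per mouse. The *Lztr1* R409C/+ mice carry a heterozygous knock-in missense mutation made with CRISPR/Cas9 and model Noonan syndrome, and they keep 1 WT allele in every cell. Both genotypes were on the C57BL/6J background, and the labels give no treatment. The study set *Lztr1* R409C/+ hearts beside those of WT littermates, but which of the sequenced mice shared a litter or a day of handling is not given in the sources used here, so the SDs below measure the spread between these mice only.

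ASB proteins are substrate receptors of ubiquitin ligases. Their ankyrin repeats bind the protein to be ubiquitinated, and their SOCS box binds Elongin B and Elongin C (*Elob*, *Eloc*), which connect them to the scaffold CUL5 and the RING protein RNF7. LZTR1 is also a ligase receptor but belongs to another scaffold, CUL3, to which it brings RAS-family GTPases. Among the ASB proteins, ASB2 is the best studied in muscle, where it directs filamins to degradation. ASB11 has been described at the endoplasmic reticulum with BIK and ribophorin I (*Rpn1*) as substrates, and ASB15 has been linked to protein turnover and differentiation in muscle cells.

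The libraries held between 66130887 and 72641124 counts, at which 3 counts corresponded to 0.0317 to 0.0541 CPM. Values are CPM after TMM normalization, which scales each library by factors computed across genes. A pair of libraries stood apart in their content of mitochondrially encoded RNA, which was 13.8% of the counts in WT replicate 3 and 45.4% in *Lztr1* R409C/+ replicate 1, against 29.7% to 37.3% in the other 4. The cardiomyocyte markers were abundant in all libraries, with summed levels of 44060 to 47670 CPM in WT and 32710 to 46610 CPM in *Lztr1* R409C/+ mice, the lowest in replicate 1, and 7 of the 10 markers had a log2 fold change below 0. Markers of skeletal muscle, another tissue rich in ASB transcripts, summed to 0.218 to 0.878 CPM in WT and 0.812 to 1.70 CPM in mutant mice, with *Myod1* at 0 in all 6 libraries. All 8 macrophage markers had a log2 fold change above 0, and their summed level ranged from 123 to 126 CPM in the 3 WT mice and from 215 to 235 CPM in the 3 mutant mice, without overlap. The 5 erythroid markers were also all above 0 in log2 fold change, with sums of 579 to 1479 CPM in WT and 1042 to 2625 CPM in mutant mice, and of the 4 smooth muscle markers 3 were below 0, with sums of 74.5 to 78.9 and 46.6 to 80.4 CPM. *Lztr1* itself was at 22.2 to 24.2 CPM in WT and 23.9 to 27.9 CPM in *Lztr1* R409C/+ mice, and a missense mutation does not show in a count per gene.

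The sequence upstream of *Asb18* held an MEF2 motif, the AT-rich site of a family of muscle transcription factors, close to the annotated start. The 250 bases before its start (chr1:89942389-89942638 of GRCm39, minus strand, outside annotated exons) are shown whole because *Asb18* is the gene with the largest difference between the genotypes among the 8. In capitals are the E-box letters CAGCTG, at positions -37 to -32 from the start, and the MEF2 motif, at -11 to -2.
Asb18 upstream: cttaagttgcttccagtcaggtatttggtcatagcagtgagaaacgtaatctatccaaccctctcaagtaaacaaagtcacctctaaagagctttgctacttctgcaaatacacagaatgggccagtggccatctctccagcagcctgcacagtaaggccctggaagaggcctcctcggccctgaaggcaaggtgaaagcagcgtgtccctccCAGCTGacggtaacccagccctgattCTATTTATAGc

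An MEF2 motif also lay upstream of *Asb12* and *Asb14*, and a CArG box, the site of serum response factor, lay upstream of 1 of the 2 *Asb2* starts. These sites are shown with 30 bases each, motif in capitals, to allow comparison with *Asb18*. They lie at chrX:94521764-94521793 (minus strand), chr14:26616531-26616560 (plus strand), and chr12:103322305-103322334 (minus strand), and the last 2 fall in exons of *Asb14* and *Asb2* that GRCm39 annotates upstream of the RefSeq start.
Asb12 MEF2: ggagggcagaCTAAAAATAGccacctagaa
Asb14 MEF2: tatagtaaagCTATTTATAAtggtcaccgg
Asb2 CArG: agaaacatacCCATATATGGgctccatgtc

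All 8 genes were found in the RefSeq promoter table (GRCm38.p6), with 10 starts in all, and each sequence matched GRCm39 exactly once. Within the 250 upstream bases, on both strands, the MEF2 motif was present for 3 of the 8 genes and for 3.42% of the 27025 genes in the table. The CArG box was present for 1 of the 8 (*Asb2*) and 1.62% of all genes. Among the other ASB genes, the MEF2 motif was found upstream of *Asb5* and *Asb16*, in *Asb16* with the same letters as in *Asb18*, and a CArG box was found upstream of *Asb5*. The M-CAT letters CATTCC were found for *Asb8* and *Asb10* (14.4% of all genes), the E-box letters CAGCTG for *Asb18* (14.7%), the GATA letters AGATAA for *Asb12* (11.4%), and the letters AAGGTCA of estrogen-related receptors for 0 of the 8 (4.70%). None of these motifs was found upstream of *Asb11* or *Asb15*, the genes whose differences came next to that of *Asb18*. Of the 250 bases searched for *Asb11*, 88 lie in its own exons as annotated on GRCm39. Those searched for *Asb15* overlap exon sequence of *Ndufa5*. Of the other ASB genes, *Asb7* and *Asb16* had the E-box letters, and *Asb16* had those of estrogen-related receptors. No motif overlapped another in the sequences shown. The motifs were chosen after the sequences were seen, and a match in these letters is a description and not a binding site.

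Transcripts of all 8 genes were detected in every mouse, and all 8 passed the filter on low counts, which their choice from a table of fewer genes than pass it largely fixed. Between the genotypes, the quasi-likelihood test of edgeR called 0 of the 8 at an adjusted p under 0.05 (Benjamini-Hochberg), and DESeq2 and the exact test of edgeR called 0 as well. Over all 17212 genes tested, the first test called 0.0407%, made up of 0.0349% that rose and 0.00581% that fell in *Lztr1* R409C/+ mice. Of all genes, DESeq2 called 143 higher and 15 lower, and the exact test called 124 higher and 13 lower. At an unadjusted p under 0.05, 3 of the 8 genes (*Asb18*, *Asb11*, and *Asb15*) were lower and 0 were higher, beside 2.86% lower and 5.77% higher of all genes. With library size only, 1 of the 8 was under this limit, beside 301 lower and 388 higher of all genes. With scaling by cardiomyocyte markers, 1 of the 8 was, beside 50 lower and 1810 higher of all genes. For 2 of the 8, *Asb18* and *Asb11*, every *Lztr1* R409C/+ mouse was below every WT mouse, as for 7.23% of all genes, and the reverse held for 0 of the 8 and 8.30% of all genes. The log2 fold change was below 0 for 6 of the 8 genes and above 0 for 2, against 48.6% and 51.4% of all genes, and its median was -0.20 for the 8 genes and 0.01 for all genes. Because the genes were chosen with this comparison known, nothing is read from these counts against the background.

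*Asb18* (ENSMUSG00000067081.14, chr1:89874473-89942388, minus strand), a heart and skeletal muscle transcript whose substrates are poorly known, had the lowest level per length and the largest relative difference of the 8. It was at 25.7, 23.0, and 15.3 CPM in WT replicates 1, 2, and 3, from 1698, 1482, and 1448 counts. In *Lztr1* R409C/+ replicates 1, 2, and 3, it was at 12.8, 10.6, and 14.4 CPM, from 707, 756, and 1045 counts. The groups did not overlap, but WT replicate 3, the library with the lowest mitochondrial share, lay close to the highest mutant mouse, and the gap between the groups was set by it. The mean was 21.3 ± 5.41 CPM in WT and 12.6 ± 1.93 CPM in *Lztr1* R409C/+ mice (SD, n = 3), so the mutant mean was 59.0% of the WT mean. The log2 fold change of *Lztr1* R409C/+ over WT mice was -0.76 (standard error 0.21), at percentile 2.43 of all genes tested. It was -0.96 without WT replicate 3, which was the largest shift among the 6 fits that each left out 1 mouse, and -0.61 without WT replicate 1.

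*Asb11* (ENSMUSG00000031382.15, chrX:163219902-163242554, plus strand), the receptor described for BIK and ribophorin I, showed the second difference without overlap and the smaller spread. Its levels were 87.9, 94.6, and 99.5 CPM in WT and 63.5, 72.0, and 68.5 CPM in *Lztr1* R409C/+ replicates 1, 2, and 3. All 3 mutant mice lay well under the lowest WT mouse, and no single mouse set the gap. The mean was 94.0 ± 5.85 CPM in WT and 68.0 ± 4.23 CPM in mutant mice (SD, n = 3), or 72.4% of WT. The log2 fold change was -0.47 (standard error 0.15), and it lay between -0.52 and -0.43 when each mouse was left out in turn.

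*Asb15* (ENSMUSG00000029685.16, chr6:24528143-24573176, plus strand), linked to protein turnover in muscle cells, had a mean difference of nearly the same size but overlapping groups. WT replicates were at 104, 120, and 78.3 CPM and *Lztr1* R409C/+ replicates at 68.7, 90.4, and 62.5 CPM. Mutant replicate 2 was above WT replicate 3, while the other mice were separated by genotype. The means were 101 ± 21.1 and 73.9 ± 14.7 CPM (SD, n = 3), 73.2% of WT, and the log2 fold change was -0.45 (standard error 0.20).

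*Asb8* (ENSMUSG00000048175.14, chr15:98032513-98063512, minus strand) and *Asb14* (ENSMUSG00000021898.17, chr14:26616514-26638732, plus strand) had lower means in *Lztr1* R409C/+ mice but overlapping groups. *Asb8* was at 72.4, 77.6, and 91.3 CPM in WT and 60.4, 76.6, and 70.0 CPM in *Lztr1* R409C/+ mice, a log2 fold change of -0.22 (standard error 0.16). *Asb14* was at 99.4, 92.0, and 88.5 CPM in WT and 101, 76.8, and 70.0 CPM in mutant mice, a log2 fold change of -0.17 (standard error 0.17). For *Asb14*, mutant replicate 1 was the highest of all 6 mice and the other 2 mutant mice were the lowest. The log2 fold change of *Asb14* was -0.35 without mutant replicate 1 and -0.07 without mutant replicate 3, and that of *Asb8* was -0.12 without WT replicate 3 and -0.14 without mutant replicate 1.

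*Asb10* (ENSMUSG00000038204.14, chr5:24737662-24746006, minus strand) was the steadiest of the 8 genes. It was at 67.3, 73.1, and 74.3 CPM in WT and 71.4, 65.9, and 68.3 CPM in mutant mice, and the groups were interleaved. The means were 71.5 ± 3.73 and 68.5 ± 2.77 CPM (SD, n = 3), and the log2 fold change was -0.06 (standard error 0.14). *Asb12* (ENSMUSG00000031204.4, chrX:94513805-94601613, minus strand) was the least abundant per library, at 5.90, 7.24, and 3.26 CPM in WT and 7.18, 5.02, and 6.75 CPM in mutant mice. WT replicate 3 was the lowest mouse, and the groups overlapped. A log2 fold change of 0.21 (standard error 0.28) was estimated from all mice, and leaving out WT replicate 3 gave -0.06 and leaving out WT replicate 2 gave 0.46.

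*Asb2* (ENSMUSG00000021200.15, chr12:103283687-103334012, minus strand), the receptor for filamins, was the most abundant of the 8 and varied more between mice than between genotypes. Its levels were 414, 380, and 295 CPM in the WT mice and 249, 362, and 483 CPM in the mutant mice, in replicate order. The lowest and the highest of the 6 mice were both mutant. The means were 363 ± 61.5 and 365 ± 117 CPM (SD, n = 3), and the log2 fold change was 0.01 (standard error 0.23). It was -0.25 without mutant replicate 3 and 0.21 without mutant replicate 1. *Myh6*, the main cardiac myosin heavy chain, was also lowest in mutant replicate 1, at 6330 CPM against 11880 and 16620 CPM in mutant replicates 2 and 3 and 14120 to 17350 CPM in WT mice. The other cardiomyocyte markers went different ways in mutant replicate 1. *Actc1*, *Actn2*, *Ryr2*, and *Mybpc3* were also lowest there, while *Tnnt2*, *Tnni3*, *Myl2*, and *Myl3* were not. *Pln* was highest there, at 7060 CPM. Counts per gene do not separate the isoforms of *Asb2*. Its exons share 405 bp with an antisense gene, *Gm15523*, which had 71 counts over all 6 libraries, and the exons of the other 7 genes overlap no other gene.

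**Figure D1:**
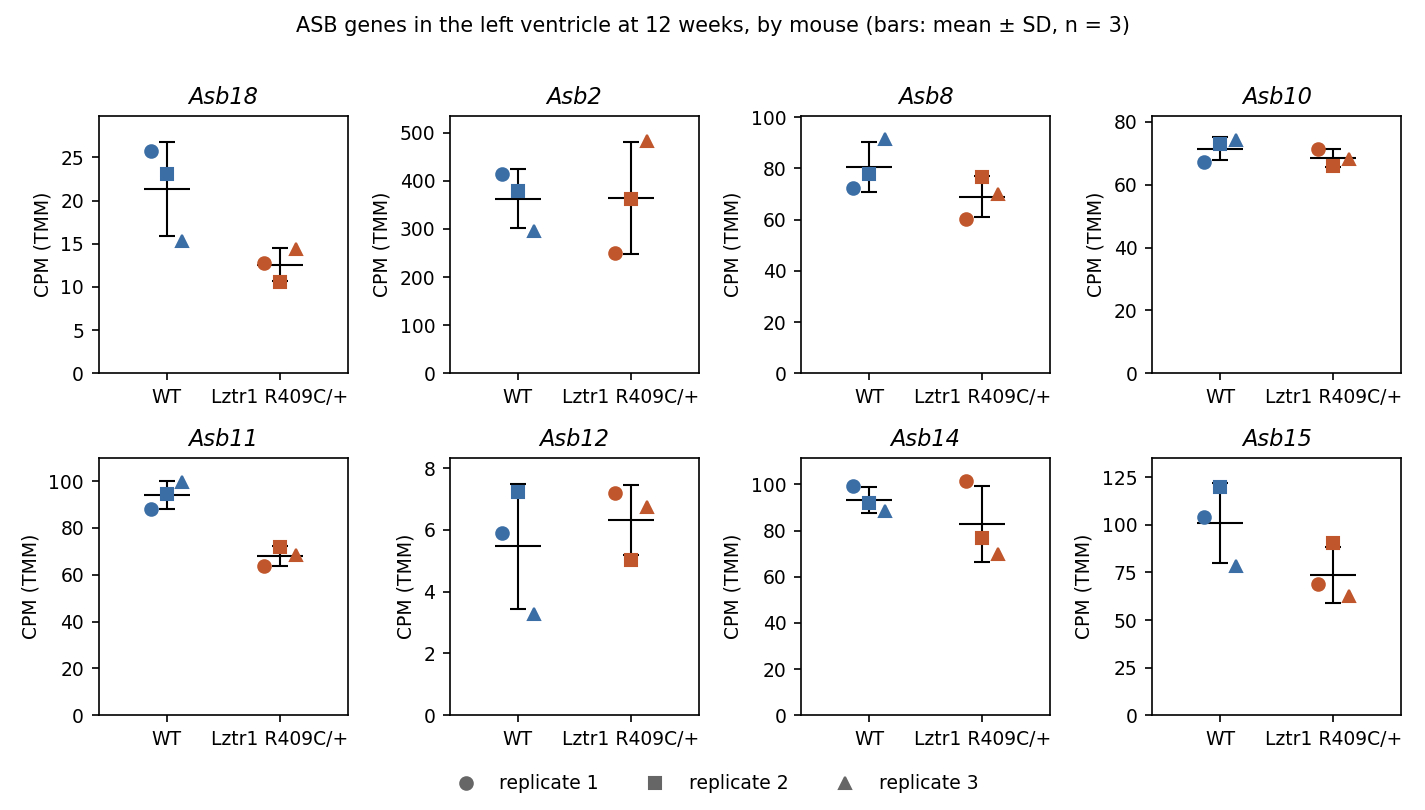
TMM-normalized level in CPM (vertical axis, from 0) of each of the 8 ASB genes in the LV of 3 WT (blue) and 3 Lztr1 R409C/+ (orange) mice, with marker shapes for the replicate and black bars for the mean ± SD. Only the panels of Asb18 and Asb11 show every Lztr1 R409C/+ mouse below every WT mouse.

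Per length, the genes fell into an upper group of *Asb2*, *Asb11*, *Asb10*, and *Asb15*, a middle pair, and a low pair of *Asb12* and *Asb18*. In WT mice, *Asb2* was at 24.4 ± 4.14, *Asb11* at 23.0 ± 1.43, and *Asb10* at 22.9 ± 1.20 CPM per kilobase of annotated exon (SD, n = 3), and the ranges of these 3 overlapped. *Asb15* followed at 18.1 ± 3.78 CPM per kilobase, and its range of 14.0 to 21.5 overlapped those of *Asb2* and *Asb11*. *Asb8*, at 11.7 ± 1.43, and *Asb14*, at 8.60 ± 0.513 CPM per kilobase, did not overlap each other or the genes above them. *Asb12*, at 3.17 ± 1.17, and *Asb18*, at 2.49 ± 0.630 CPM per kilobase, overlapped, although *Asb12* was above *Asb18* in each of the 6 mice. With the length of the longest annotated transcript in place of all exons, the WT level was 51.1 for *Asb2*, 45.5 for *Asb11*, 28.6 for *Asb10*, 20.4 for *Asb15*, 3.48 for *Asb12*, and 2.92 for *Asb18*, and the order changed only between *Asb8* (16.5) and *Asb14* (16.8). The nearness of *Asb11* to *Asb10* therefore depended on the length used.

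As a share of the summed level per kilobase of the 8 genes, *Asb18* took 2.16% ± 0.467 in WT and 1.48% ± 0.235 in *Lztr1* R409C/+ mice (SD, n = 3). The shares per mouse were 2.59%, 2.23%, and 1.66% in WT and 1.63%, 1.21%, and 1.61% in mutant mice, so that WT replicate 3 and mutant replicates 1 and 3 were nearly equal. *Asb11* took 20.1% ± 2.23 in WT and 16.8% ± 0.669 in mutant mice, and its shares of 17.0%, 17.3%, and 16.0% in mutant mice were all below the WT shares of 18.5%, 19.2%, and 22.7%. *Asb2* took 21.3% ± 2.79 and 24.5% ± 6.36, with overlap. These shares use no scaling between libraries.

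**Figure D2:**
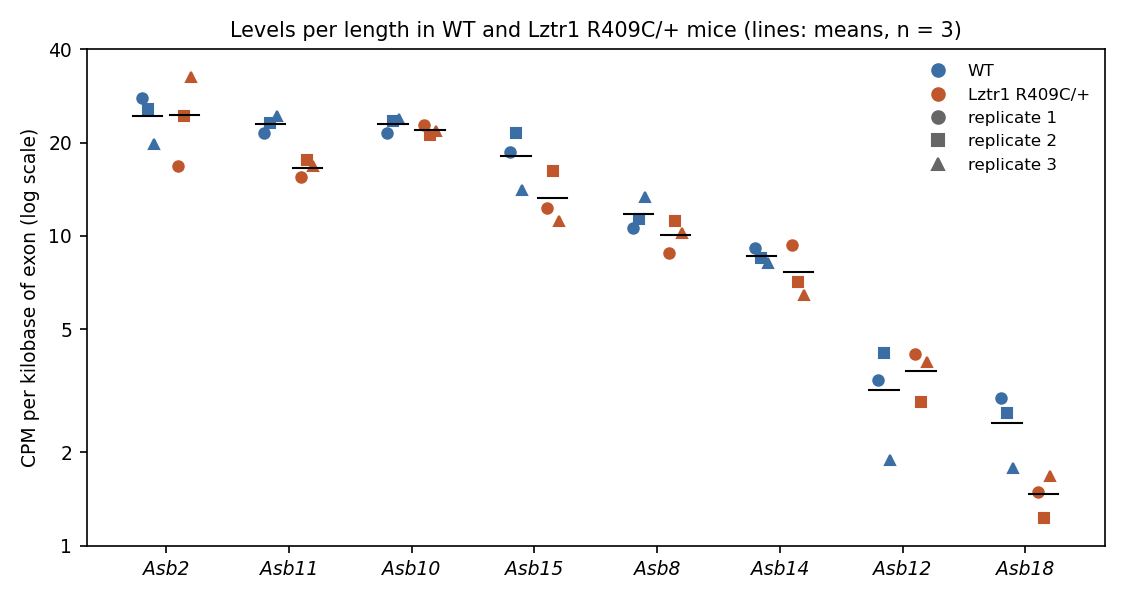
Level in TMM-normalized CPM per kilobase of annotated exon (vertical log axis) of the 8 ASB genes, ordered by their WT mean, in WT (blue) and Lztr1 R409C/+ (orange) mice, with marker shapes for the replicate and lines for the mean of 3 mice. The WT means fall from 24.4 for Asb2 to 2.49 for Asb18.

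The difference in *Asb18* kept its direction under each scaling of the libraries, while its separation between the genotypes did not. With library size only, which does not correct for the mitochondrial share, *Asb18* was at 23.7, 20.8, and 21.2 CPM in WT and 10.2, 10.4, and 15.8 CPM in *Lztr1* R409C/+ mice. WT replicate 3 then lay with the other WT mice, and the log2 fold change was -0.85, where the median of all genes moved to -0.14. Scaled by the summed counts of the 10 cardiomyocyte markers, *Asb18* was at 22.9, 21.8, and 14.7 in WT and 16.6, 11.0, and 13.1 in mutant mice. Mutant replicate 1, with the lowest marker sum, then lay above WT replicate 3, and the log2 fold change was -0.55, where the median of all genes moved to 0.22. *Asb11* overlapped under this scaling as well, at 78.3, 89.3, and 95.9 in WT and 82.5, 75.0, and 62.5 in mutant mice, with a log2 fold change of -0.26. The marker sum weighs abundant genes most, and *Myh6* was its largest part in WT mice. *Myh6* was at 14120 to 17350 CPM in WT mice and at 6330 CPM in mutant replicate 1. Whether the overlaps remain without *Myh6* in the sum was not tested. A scaling changes 1 factor per library and so shifts all genes about alike. The cardiomyocyte marker sums of the genotypes overlapped, and a low sum in LV tissue cannot tell fewer cardiomyocytes from less RNA per cardiomyocyte. The part of the cardiomyocyte and macrophage marker sums and the mitochondrial share in the differences was not tested.

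**Figure D3:**
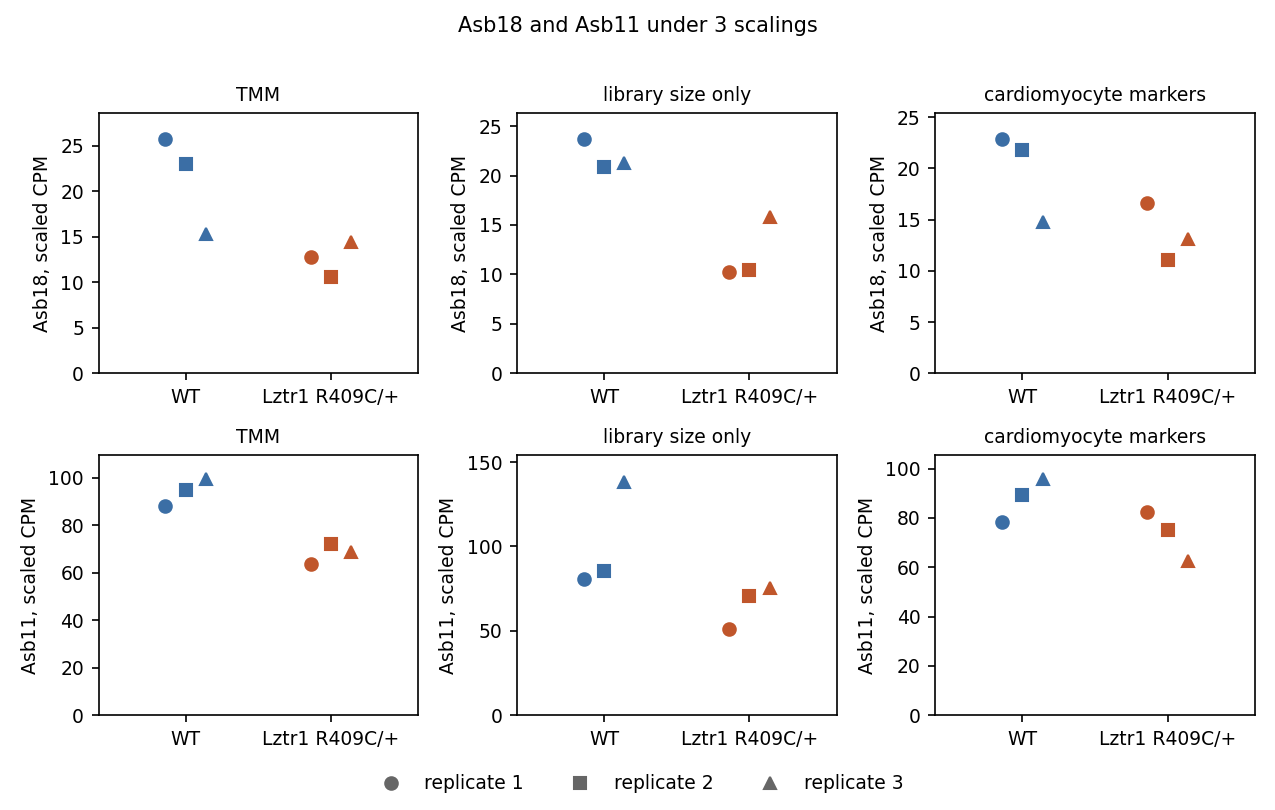
Asb18 (upper row) and Asb11 (lower row) in CPM (vertical axes, from 0) in WT (blue) and Lztr1 R409C/+ (orange) mice, with marker shapes for the replicate, after TMM normalization, with library size only, and scaled by the cardiomyocyte markers. The genotypes are apart in the first 2 scalings and overlap in the third.

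Over 18 other settings, the log2 fold change stayed below 0 for *Asb18* (-0.96 to -0.55), *Asb11* (-0.63 to -0.26), *Asb15* (-0.63 to -0.23), and *Asb8* (-0.40 to -0.03). The sign turned for *Asb10* and *Asb14* in 1 setting, the cardiomyocyte marker scaling, where they were at 0.16 and 0.08, both below the median of all genes in that setting (0.22). It turned for *Asb12* in 2 settings, both without WT replicate 3, and for *Asb2* in 7. Without WT replicate 3 and *Lztr1* R409C/+ replicate 1 together, a setting added after the data were seen, *Asb18* was at -0.96, *Asb11* at -0.38, and *Asb15* at -0.55. In that setting 4 of the 8 genes had every mutant mouse below every WT mouse, as 19.9% of all genes did with 2 mice against 2.

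**Figure D4:**
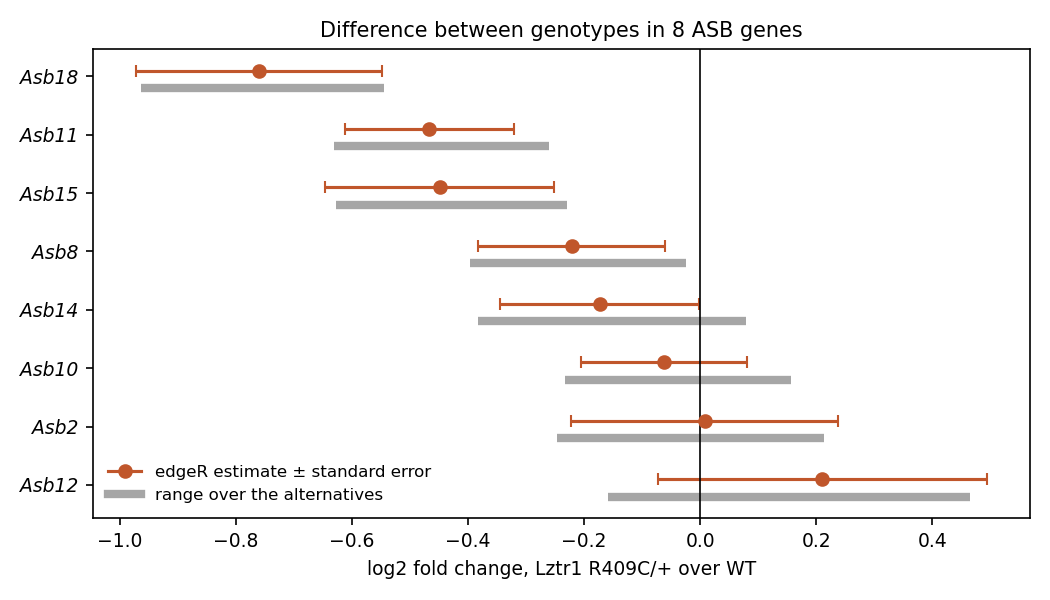
Log2 fold change of Lztr1 R409C/+ over WT mice (horizontal axis) for each of the 8 ASB genes, with points and bars for the edgeR estimate ± standard error and grey bars for the range over 18 other settings. Asb18, Asb11, Asb15, and Asb8 stay below 0 throughout, and the ranges of the other 4 genes include 0.

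How closely the other 7 genes followed *Asb18* from mouse to mouse differed between them. Over the 6 mice, the Pearson correlation of log2 CPM with *Asb18* was 0.65 for *Asb15* and for *Asb11*, 0.48 for *Asb14*, 0.36 for *Asb2*, 0.21 for *Asb10* and *Asb12*, and 0.15 for *Asb8*. Among 9775 genes with a mean of at least 5 CPM, the value of *Asb15* lay at percentile 92.4 and that of *Asb8* at percentile 55.3. With the genotype means subtracted, the correlation with *Asb18* was 0.89 for *Asb12*, 0.55 for *Asb2*, 0.24 for *Asb15*, 0.16 for *Asb14*, -0.37 for *Asb10*, -0.73 for *Asb11*, and -0.78 for *Asb8*, and *Asb11* and *Asb8* gave 0.97 with each other. These correlations share the genotype, the library scaling, and the mitochondrial share of each library, and they are given as a description.

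The genes most like *Asb18* were *Dhx35*, an RNA helicase (r = 0.997), *Nprl2*, a subunit of the GATOR1 complex (0.994), *Cmya5*, a large sarcomere-associated protein (0.992), *Zbtb38*, a zinc finger protein that binds methylated DNA (0.987), and *Ube2ql1*, a ubiquitin-conjugating enzyme-like gene (0.986). With the genotype means subtracted, these correlations were between 0.96 and 0.99. *Cmya5*, the most abundant of them, was at 637, 641, and 539 CPM in WT and 497, 456, and 519 CPM in *Lztr1* R409C/+ mice. Within each genotype, its lowest value was that of WT replicate 3 or mutant replicate 2, as for *Asb18*, which follows from its choice by this correlation. The genes least like *Asb18* were *Vim*, encoding vimentin (r = -0.99), *Rtp4*, an interferon-induced gene (-0.98), and the MHC class I gene *H2-Q7* (-0.98).

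None of the other ASB genes was called between the genotypes, where 0.0407% of all genes were called. Of 10 such genes, *Asb9* and *Asb17* had 0 counts in all 6 mice, which allows up to 0.0541 CPM in a library, and 8 were tested. Their log2 fold changes were below 0 for 5 and above 0 for 3, beside 48.6% and 51.4% of all genes. Their median was -0.09. The lowest was that of *Asb7*, at 8.73, 10.4, and 11.7 CPM in WT and 7.98, 9.11, and 7.05 CPM in *Lztr1* R409C/+ mice (log2 fold change -0.36, adjusted p = 0.640 from edgeR). *Asb5*, the highest at 0.24, was at 36.4 CPM in mutant replicate 1 and at 14.4 to 22.7 CPM in the other 5 mice.

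The ligase partners showed no call either, where 0.0407% of all genes were called. All 22 genes of the CUL5 core and its activation were tested, and 0 passed the threshold. The log2 fold change was above 0 for 5 and below 0 for 17, beside 51.4% and 48.6% of all genes. The median of the 22 genes was -0.06. At an unadjusted p under 0.05, 1 was higher and 1 was lower, where 5.77% and 2.86% of all genes were. *Elob*, encoding Elongin B, was at 49.7, 43.0, and 35.5 CPM in WT and 57.9, 53.3, and 65.5 CPM in *Lztr1* R409C/+ mice (log2 fold change 0.46, standard error 0.17, adjusted p = 0.478 from edgeR). Every mutant mouse was above every WT mouse for *Elob*, 1 of the 22 genes, as for 8.30% of all genes. *Cul5*, the scaffold, was at 71.8, 68.7, and 97.8 CPM in WT and 56.5, 69.9, and 49.0 CPM in mutant mice, with overlap between WT replicate 2 and mutant replicate 2 (log2 fold change -0.44, standard error 0.19, adjusted p = 0.554 from edgeR). Both kept their sign in all 18 other settings, *Elob* between 0.29 and 0.68 and *Cul5* between -0.66 and -0.23, with *Cul5* at -0.27 without WT replicate 3. *Eloc*, the partner of *Elob*, had a log2 fold change of -0.06, and *Rnf7*, the RING protein, of 0.08. Neither kept its sign over the same settings, with *Eloc* between -0.25 and 0.19 and *Rnf7* between -0.18 and 0.36.

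Receptors that share CUL5 with the ASB proteins, and proteins described as ASB substrates, went both ways, and none was called. Over all genes, 0.0407% were called, and the log2 fold change was above 0 for 51.4% and below 0 for 48.6%. Of 16 other SOCS-box receptors (SOCS, SPSB, WSB, and RAB40 genes and *Cish*), 9 had a log2 fold change above 0 and 7 below, with a median of 0.03 and 0 calls. *Spsb2* had the highest log2 fold change, 0.65 (adjusted p = 0.746 from edgeR), and *Socs6* the lowest, -0.33 (adjusted p = 0.680 from edgeR). Of 8 reported substrates, 4 were above and 4 below 0, with a median of -0.04 and 0 calls. The highest was that of *Tcf3*, a transcription factor, at 0.27 (adjusted p = 0.746 from edgeR). *Flnc*, the muscle filamin and a substrate of ASB2, was at 285, 286, and 266 CPM in WT and 134, 249, and 306 CPM in *Lztr1* R409C/+ mice (log2 fold change -0.28, adjusted p = 0.796 from edgeR). As for *Asb2*, the lowest and the highest value of *Flnc* were those of mutant replicates 1 and 3. *Cul2*, *Rbx1*, and *Vhl*, which use the same elongins with another scaffold, had log2 fold changes between -0.08 and -0.003. With the cardiomyocyte marker scaling, 19 of the 22 CUL5 genes were above 0 and the median of the 8 ASB genes was 0.03, while over all genes the share below 0 was 21.1% and the median 0.22.

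**Figure D5:**
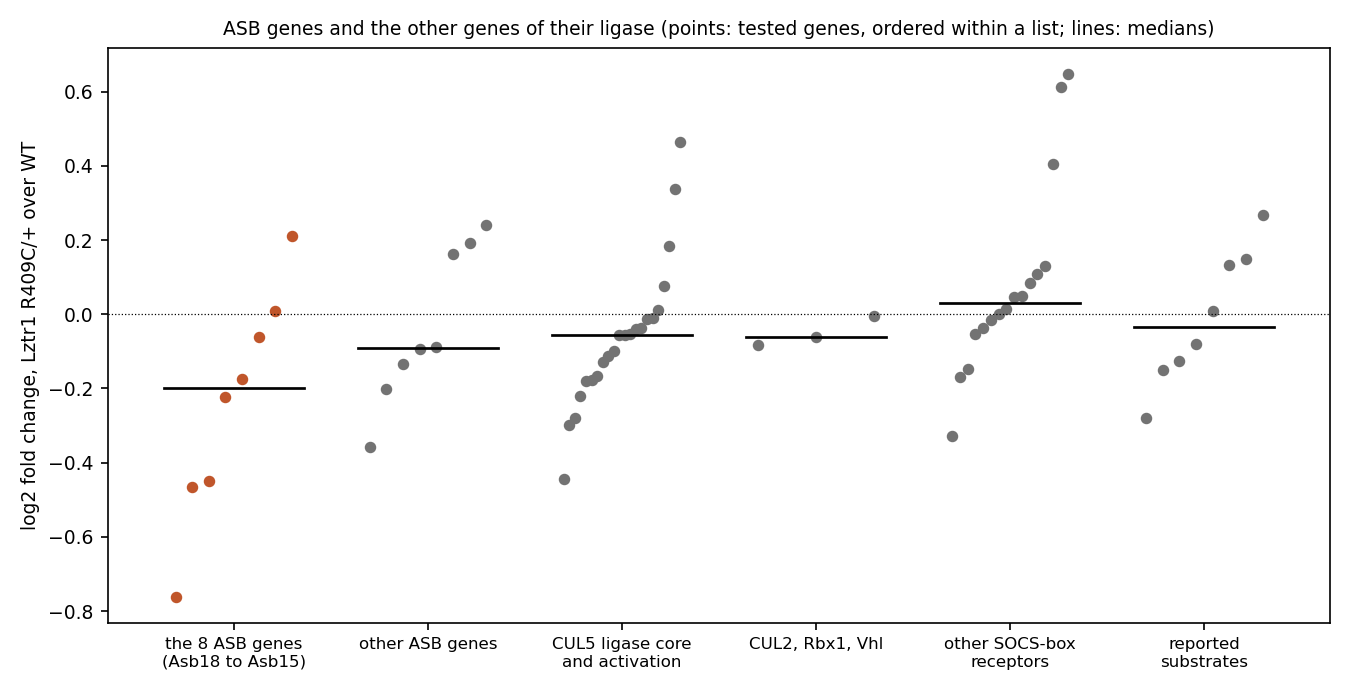
Log2 fold change of Lztr1 R409C/+ over WT mice (vertical axis) for the tested genes of 6 lists, with points for genes in ascending order within a list and lines for the list median. The 8 ASB genes (orange) have a median of -0.20 and the lowest single value, that of Asb18, and the medians of the other lists lie between -0.09 and 0.03. The 8 genes were chosen with this comparison known, so nothing is read from their place beside the other lists.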

How the data were processed

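LVs of 3 WT and 3 *Lztr1* R409C/+ mice were profiled by mRNA-Seq (NEBNext Ultra II kit, strand setting not given in the sources used here). The authors trimmed reads with Trim Galore, aligned them to GRCm39 with HISAT2, excluded rRNA, and deposited counts per gene from StringTie, whole numbers without normalization. The annotation release is not given in the sources used here. The authors' edgeR comparison of 12629 genes (log2 fold changes, average log2 CPM, p-values, and adjusted p-values) was used for gene names only. The 8 genes, the gene lists, the alternatives, and the named genes were chosen with earlier results of these data known. Named were all 8 genes and the 5 most and 3 least like *Asb18*. From the other lists, genes were named among the 2 with the smallest unadjusted p in each direction. *Asb13* had a smaller p than *Asb5*, which was named for its log2 fold change. Also named were *Cul2*, *Rbx1*, and *Vhl*, the undetected *Asb9* and *Asb17*, and other ASB genes with a motif. *Eloc*, *Rnf7*, *Myh6*, and the other library checks were named for their roles, and *Asb2* and *Flnc* were set beside *Myh6* after their values were seen.

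The genotypes were compared on the counts with edgeR 4.0.16 in R 4.3.3 (filterByExpr, 17212 of 56923 genes kept, TMM, robust quasi-likelihood test, Benjamini-Hochberg adjustment at 0.05, two-sided, all 6 mice, no covariate). The form of the authors' edgeR test is not given in the sources used here. Total counts were 66130887 to 72641124 per mouse, floors (3 counts) cover counting error only, and the biological coefficient of variation was 26.1%. Standard errors are the absolute log2 fold change divided by the square root of F. Correlations used log2 CPM with a prior count of 2. Lengths and positions came from GENCODE on GRCm39, and upstream sequences from RefSeq (GRCm38.p6) were placed on GRCm39 by exact match. The steps were tested on simulated data. Alternatives were scaling by library size only, by the upper quartile, by the size factors of DESeq2, by cardiomyocyte markers, or without mitochondrial genes, the Wald test of DESeq2 1.42.0, the exact test of edgeR, omission of the filter, at least 10 counts in every mouse, a replicate block, a loess on gene length, and the omission of each mouse. Replicates with the same number did not deviate together, so the numbers were not treated as pairs. No batch or date is given in the labels.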

Additional observations from a re-analysis of the deposited data

How the results depend on the processing

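The log2 fold changes of *Asb18* and *Asb15* moved by less than the spread between mice in each alternative. That of *Asb11* (-0.47) was -0.63 with library size only, -0.59 after the loess on gene length, and -0.26 with cardiomyocyte marker scaling, where the median of all genes moved from 0.01 to 0.22. The number of the 8 genes with every *Lztr1* R409C/+ mouse below every WT mouse (2) was 4 with library size only (4.75% of all genes, against 7.23% with TMM), 0 with cardiomyocyte marker scaling (1.23%), 4 without WT replicate 3 and *Lztr1* R409C/+ replicate 1 together (19.9%), and 2 to 4 when 1 mouse was left out (11.1% to 13.0%), with 4 without WT replicate 1 and without *Lztr1* R409C/+ replicate 2. None of the 8 genes was called in any of the settings with a test, which leaves out the loess on gene length. Over all genes, the 6 higher calls became 15 with library size only, 143 with DESeq2, 124 with the exact test, 19 without a filter, 0 without both mice named above, and 1 to 3 when 1 mouse was left out. The single lower call became 6 with library size only, 15 with DESeq2, 13 with the exact test, 0 with at least 10 counts in every mouse, and 1 to 2 when 1 mouse was left out. With the replicate block, 0 genes were called higher and 1 lower, *Asb18* was at -0.74 (standard error 0.23) and *Asb11* at -0.47. Same-numbered mice correlated at -0.00133, 0.0215, and -0.0573 in their deviations from the group means, and not every mouse correlated best with its own number. The causes of these shifts were not tested. At 707 to 1698 counts for *Asb18*, counting error was small beside the spread between mice. The identity between the ASB proteins was not run.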
